A study of Rattus norvegicus with 6 samples.

Results

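The genes of the respiratory chain and of ATP synthase were followed in livers of fibrotic rats given ginkgetin, a plant biflavone, or vehicle. They were taken by symbol: the subunit families of complexes I to V among nuclear genes, and every gene with the prefix Mt-, which marks genes of the mitochondrial genome. The rule gave 94 of the 16209 genes in the table, 81 of them nuclear and 13 mitochondrially encoded. RNA from whole liver tissue of 6 samples was sequenced in bulk, 3 from vehicle-treated rats and 3 from rats given ginkgetin at 10 mg/kg/day. Both groups were fibrotic; the labels read here name no strain, sex, age or way of inducing fibrosis, and there was no group without fibrosis. Table columns that carry the letters TAA were taken as the vehicle samples, since the labels hold no other group, and every direction below rests on that. The labels do not say whether replicates are separate animals, so each p-value rests on the spread among these libraries, which may be technical.

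The respiratory chain sits in the inner mitochondrial membrane. Complex I takes electrons from NADH and complex II from succinate, both pass them through ubiquinone to complex III, cytochrome c carries them to complex IV, and complex V makes ATP from the proton gradient. Complex II is encoded by nuclear genes alone, whereas the other complexes mix nuclear subunits with a few made inside the mitochondrion from its own DNA. Hepatocytes hold many mitochondria, and in bulk liver RNA fewer cells of a type and less RNA per cell cannot be told apart.

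Library totals ran from 13372367 to 14933853 reads. The library of vehicle replicate 3 stood apart. The 16 hepatocyte markers took 5.90% of its reads against 12.7% to 20.1% in the other 5 libraries, and 11 stellate cell and fibroblast markers took 1.54% against 0.0222% to 0.121%. Cholangiocyte markers (9 genes) took 0.258% there against 0.0034% to 0.0244%, and 11 macrophage and leukocyte markers 0.309% against 0.021% to 0.0402%. The summed shares of cholangiocyte and of stellate cell and fibroblast markers did not overlap between the groups without that library either. Cholangiocyte markers took 0.0163% and 0.0244% of reads in the other vehicle libraries and 0.00667%, 0.00357% and 0.0034% with ginkgetin. Their median log2 difference was -3.21, and -3.01 without vehicle replicate 3. The stellate cell and fibroblast markers, at 0.0755% and 0.121% in those vehicle libraries and 0.0362%, 0.0447% and 0.0222% with ginkgetin, had medians of -1.62 and -1.08. Marker by marker, 4 of these 11 had a higher mean with ginkgetin without vehicle replicate 3, against 0 of the 9 cholangiocyte markers. Values without vehicle replicate 3 are given beside the results, which does not remove this difference between the groups; the part of cell makeup in them was not tested. By limma, 2 of the 14639 genes tested had a Benjamini-Hochberg adjusted p under 0.05, which is 0.0137%, and none of the 92 chain genes tested was among them.

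The 13 mitochondrially encoded genes differed far more from library to library than the nuclear genes of the same complexes. They took 15.3%, 10.95% and 6.26% of reads in vehicle replicates 1 to 3 and 19.7%, 4.24% and 7.50% in ginkgetin replicates 1 to 3. The highest and the lowest library of all were both in the ginkgetin group, 4.64-fold apart, and the vehicle libraries spanned 2.44-fold. The 81 nuclear genes together took 0.966%, 1.04% and 1.38% of reads in the vehicle libraries and 1.20%, 0.889% and 1.03% in the ginkgetin libraries. Their range over all 6 libraries was 1.56-fold. As shares of all reads, the nuclear genes averaged 1.13% ± 0.222 in the vehicle group and 1.04% ± 0.153 in the ginkgetin group (SD, n = 3 each), and the groups overlapped.

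**Figure D1:**
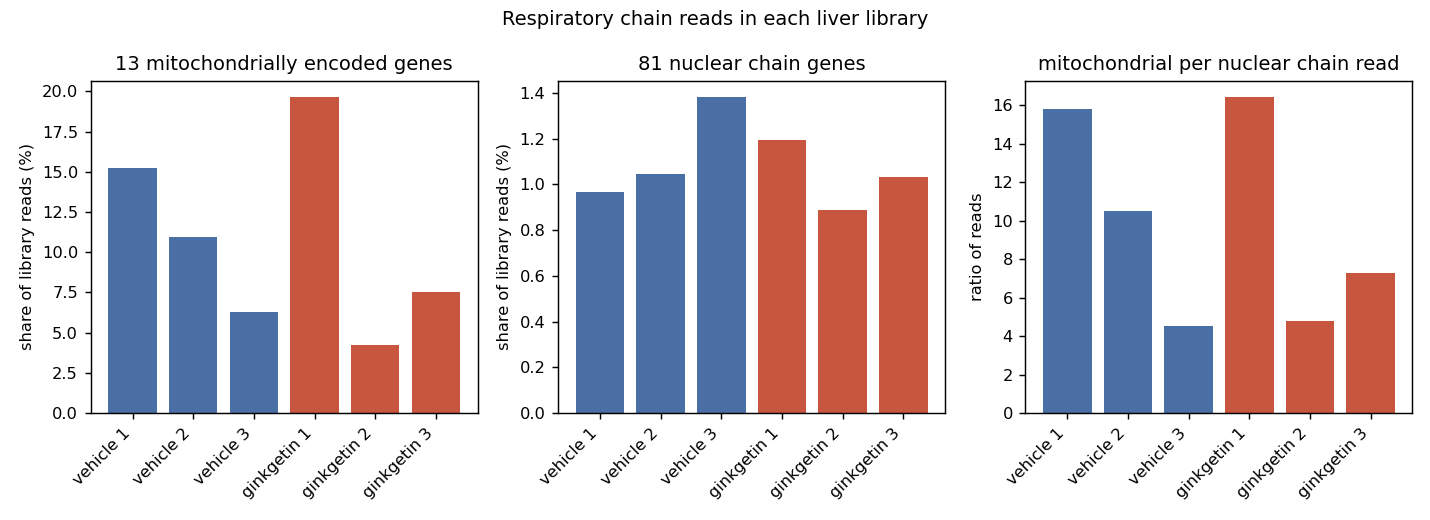
Share of library reads (percent) taken by the 13 mitochondrially encoded genes and by the 81 nuclear chain genes, and the number of mitochondrially encoded reads per nuclear chain read, in each of the 6 libraries (blue, vehicle; red, ginkgetin). The mitochondrial share runs from 4.24% to 19.7% and the nuclear share from 0.889% to 1.38%, and in every panel the groups overlap.

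Set against each other within a library, there were 15.8, 10.5 and 4.53 mitochondrially encoded reads per nuclear chain read with vehicle and 16.5, 4.77 and 7.26 with ginkgetin. This ratio does not depend on a scaling factor per library. On the log2 scale the vehicle libraries averaged 3.18 ± 0.92 and the ginkgetin libraries 3.05 ± 0.91 (SD, n = 3 each), a difference of -0.13 that is far inside the spread of either group. The difference was -0.635 without vehicle replicate 3 and -0.627 without ginkgetin replicate 1, the libraries with the lowest and the highest ratio. It was 0.267 without vehicle replicate 1 and 0.266 without ginkgetin replicate 2. Complex by complex the picture repeated. For complex I the vehicle libraries had ratios of 10.8, 7.07 and 3.14 and the ginkgetin libraries 10.6, 2.98 and 4.72. For complex IV these were 51.1, 34.4 and 13.1 for vehicle and 50.6, 17.6 and 22.9 for ginkgetin. In complexes III and V as well, vehicle replicate 1 and ginkgetin replicate 1 were the highest libraries. Hepatocyte markers did not follow the same order: they took 16.3%, 15.5% and 5.90% of reads with vehicle and 12.7%, 20.1% and 18.5% with ginkgetin.

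No mitochondrially encoded gene separated the groups by its level. On the deposited scale 8 of the 13 had a higher mean with ginkgetin, with a median log2 difference of 0.22, but 0 of 13 did without vehicle replicate 3 (median -0.37), without ginkgetin replicate 1 (median -0.46) or after scaling to equal library totals (median -0.29), and 1 did after quantile scaling (median -0.56). Without ginkgetin replicate 2 the median was 0.81. Standard errors of these genes ran from 0.63 to 1.28 log2 units, against a median of 0.32 for the nuclear chain genes. None reached an unadjusted limma p of 0.05, and none had groups that did not overlap. Mt-co1, the catalytic subunit of complex IV, had normalized values of 1052999, 534173 and 212047 with vehicle and 1326472, 340587 and 606460 with ginkgetin. Both the highest and the second lowest library for Mt-co1 were ginkgetin libraries. Mt-cyb, the cytochrome b of complex III, was at 208019, 121357 and 42350 with vehicle and at 319706, 55896 and 106190 with ginkgetin. Mt-atp6, the proton channel subunit of ATP synthase, was at 276954, 146329 and 58207 with vehicle and at 392236, 68019 and 141308 with ginkgetin. These genes broadly follow the summed normalized values of the mitochondrially encoded genes. That sum was lowest in vehicle replicate 3 (517240) and next lowest in ginkgetin replicate 2 (689260). By share of reads the order of these libraries was reversed, at 6.26% and 4.24%. Mt-atp8, whose gene overlaps Mt-atp6, had only 7 to 52 reads per library, and how reads on overlapping genes were counted is not given.

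The make-up of the mitochondrially encoded reads was much steadier than their total, and there the groups parted for several genes. As a share of the mitochondrially encoded reads of its own library, Mt-nd5, a proton-pumping membrane subunit of complex I, was at 3.34%, 3.51% and 3.39% with vehicle and at 2.52%, 2.46% and 2.33% with ginkgetin. Both groups are tight, and the lowest vehicle value lies well above the highest ginkgetin value. Mt-nd6, another membrane subunit of complex I and the only protein gene on the light strand, was at 0.715%, 0.909% and 0.972% with vehicle and at 0.537%, 0.477% and 0.481% with ginkgetin. Mt-nd3, a small membrane subunit of complex I, was at 0.725%, 0.883% and 1.10% with vehicle and at 0.392%, 0.540% and 0.572% with ginkgetin. Mt-co2, the complex IV subunit that accepts electrons from cytochrome c, was at 6.97%, 8.50% and 10.3% with vehicle and at 6.42%, 6.84% and 5.83% with ginkgetin. In Mt-co2 the gap between the groups is narrow and vehicle replicate 3 is the highest library. Mt-nd1, also a membrane subunit of complex I, was at 6.41%, 6.22% and 6.50% with vehicle and at 6.53%, 6.91% and 6.63% with ginkgetin, so that all ginkgetin values were higher by a small margin. The other 8 genes overlapped, among them Mt-co1, which held 43.5%, 41.4% and 41.0% with vehicle and 40.9%, 49.4% and 47.6% with ginkgetin.

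**Figure D2:**
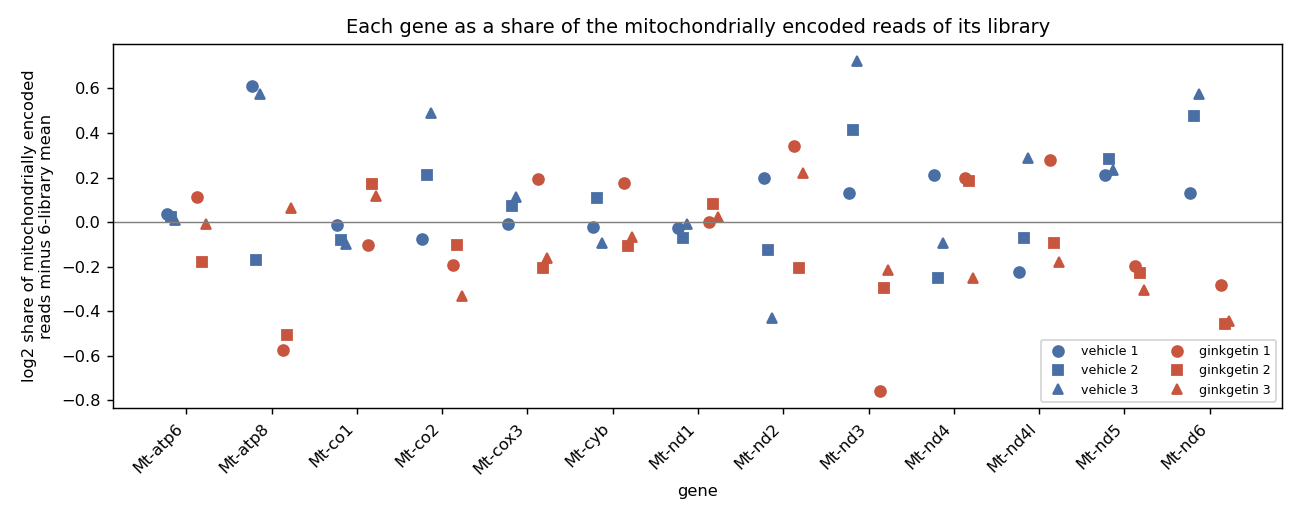
For each mitochondrially encoded gene (x axis), the log2 share of its library's mitochondrially encoded reads minus the mean over the 6 libraries (y axis, log2 units; blue, vehicle; red, ginkgetin; marker shape gives the replicate). Mt-nd3, Mt-nd5, Mt-nd6 and Mt-co2 have all 3 vehicle points above all 3 ginkgetin points, and Mt-nd1 has the reverse by a small margin.

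In all, 4 of the 13 shares were lower with ginkgetin with no overlap and 1 was higher. Among all 14639 tested genes, each divided in the same way by the mitochondrially encoded reads of its library, 5.16% were lower and 1.29% higher with no overlap, but those other genes carry the 4.64-fold swing of that total. Shares of 1 total also depend on each other, so the reads were set against single genes too. Per 100 Mt-nd1 reads the vehicle libraries held 52.2, 56.4 and 52.2 Mt-nd5 reads and the ginkgetin libraries 38.6, 35.6 and 35.2. The Mt-nd5 share averaged 3.42% ± 0.0871 in the vehicle group and 2.44% ± 0.0957 in the ginkgetin group (SD, n = 3 each), a log2 difference of -0.49 that ran from -0.51 to -0.45 when each library was left out. For Mt-nd6 the log2 difference in share was -0.79, with a range of -0.92 to -0.70 on leaving out a library. For Mt-nd3 it was -0.85, with a range of -0.99 to -0.68. These 3 stayed lower without overlap when Mt-co1 was taken out of the total, at -0.38, -0.68 and -0.74 in that order. Mt-co2 then overlapped between the groups (-0.31), and so did Mt-nd1 (0.17). With 3 libraries against 3, no exact two-sided test can go below p = 0.1, so none is given for these shares. Mt-nd5 and Mt-nd6 lie on opposite strands next to each other, and the strand setting of the counting is not given, so reads from 1 of them may be counted with the other. Per 100 Mt-nd5 reads there were 21.4, 25.9 and 28.7 Mt-nd6 reads with vehicle and 21.3, 19.4 and 20.6 with ginkgetin, groups that meet almost exactly at their edges.

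Among the nuclear genes, small differences in 1 direction prevailed on the deposited scale. Of 79 tested, 74 had a higher mean with ginkgetin, which is 93.7% against 48.6% of all genes, with a median log2 difference of 0.37 (all genes, -0.02); scaling to equal library totals reversed this, with 19 of 79 higher and a median of -0.15, and quantile scaling left 52 of 79 higher and a median of 0.09. Equal totals moved the median of all genes to -0.53. Relative to that shift the nuclear chain genes lay 0.38 higher, as they lay 0.39 above all genes on the deposited scale, but after quantile scaling only 0.03. Without vehicle replicate 3, 72 of 79 had a higher mean and the median was 0.27. None passed an adjusted p of 0.05 by limma, or by edgeR, which had 4 higher and 1 lower at an unadjusted p under 0.05. At an unadjusted limma p under 0.05, 6 were higher (7.59%, against 7% of all genes) and 1 was lower (1.27%, against 13.2% of all genes). The share of higher members is close to the background and that of lower members is under it. The higher count was 13 without vehicle replicate 1 but 1 without vehicle replicate 2 or without ginkgetin replicate 3. The number of all tested genes at that p, in either direction, moved the same way. It was 2963 with every library, and 4123, 2224 and 1745 in these fits, in the order named. For higher genes alone the share of all genes in these fits is not given. Without vehicle replicate 3 the higher count of nuclear chain genes was 4 (5.06%, against 5.68% of all genes). Groups that did not overlap were found for 16 higher genes (20.3%, against 11.4%) and for 2 lower ones (2.53%, against 16.1%). DESeq2 on recovered reads called 2 chain genes, Uqcrc2 and Cox6b2, where it called 9.39% of all genes.

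**Figure D3:**
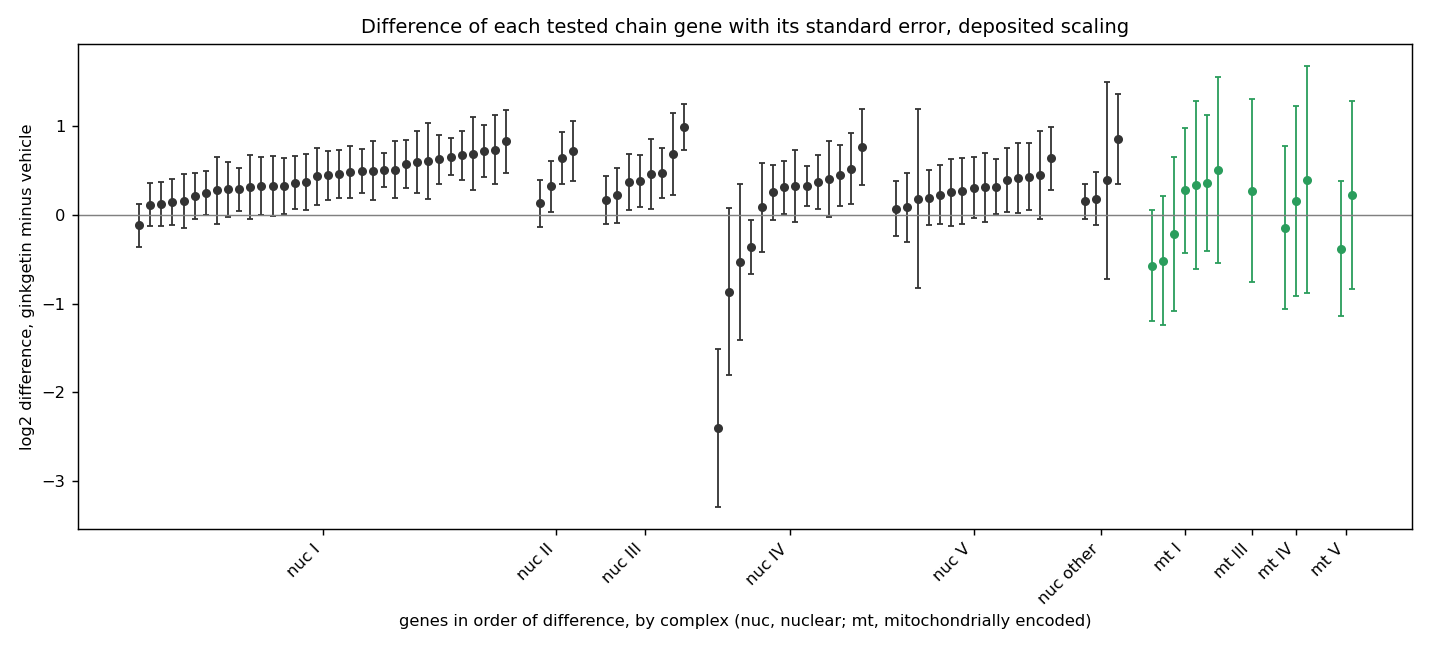
Log2 difference between ginkgetin and vehicle (y axis, deposited scaling) of each of the 92 tested chain genes with its standard error as a bar, ordered by size within each complex (x axis; black, nuclear; green, mitochondrially encoded). Most nuclear points lie a little above 0 on this scaling, where 74 of 79 are higher, against 19 of 79 after scaling to equal library totals; the mitochondrially encoded genes have longer bars and lie on both sides.

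The 34 nuclear subunits of complex I had a median log2 difference of 0.44, with 33 higher means, on the deposited scale, 0.29 without vehicle replicate 3, 0.21 after quantile scaling and -0.08 after scaling to equal library totals. The 7 core subunits, which carry the flavin and the iron-sulfur clusters, had a median of 0.46 and the 27 accessory subunits one of 0.37. Ndufs5, an accessory subunit on the intermembrane space side, had normalized values of 332, 315 and 346 with vehicle and 596, 441 and 543 with ginkgetin. Its groups were well apart, with a log2 difference of 0.66 ± 0.21 (SE; limma, adjusted p = 0.158), and it was 0.14 with equal totals. Ndufb6, an accessory subunit of the membrane arm, was at 424, 384 and 422 with vehicle and at 595, 566 and 583 with ginkgetin. The ginkgetin libraries lay close together above all vehicle libraries, with a log2 difference of 0.50 ± 0.19 (SE; limma, adjusted p = 0.199) that became -0.02 with equal totals. Ndufb4, another accessory membrane-arm subunit, was at 569, 372 and 352 with vehicle and at 846, 555 and 642 with ginkgetin. There ginkgetin replicate 2 lay just under vehicle replicate 1. The log2 difference was 0.67 (limma, adjusted p = 0.224), and 0.15 with equal totals. Ndufa6, an accessory subunit that binds the acyl carrier protein, was at 2465, 1673 and 1314 with vehicle and at 3940, 2393 and 3242 with ginkgetin. It overlapped by 1 pair of libraries. Its log2 difference was the largest of complex I on the deposited scale, 0.83 (limma, adjusted p = 0.243), and 0.31 with equal totals. It was named after its values were seen, for an unadjusted p under 0.05. At the other end stood Ndufs4, an accessory subunit of the matrix arm, at 896, 649 and 849 with vehicle and 867, 635 and 703 with ginkgetin. Its log2 difference of -0.12 was the only one under 0 in the complex on the deposited scale. The other subunits ran from 0.12 for Ndufs8, a core iron-sulfur subunit, to 0.74 for Ndufa12, which had 24.9, 37.4 and 31.3 with vehicle and 60.8, 52.1 and 44.5 with ginkgetin. Ndufa12 is an accessory subunit of the matrix arm, and its groups did not overlap. With equal totals Ndufs8 was at -0.40 and Ndufa12 at 0.23. Among the subunits with no overlap were also Ndufb11, Ndufs1, Ndufs7 and Ndufv1.

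Complex II, succinate dehydrogenase, is also an enzyme of the tricarboxylic acid cycle, and its 4 genes all had a higher mean with ginkgetin on the deposited scale (median 0.48; 0.36 without vehicle replicate 3; -0.04 with equal totals). Sdhd, a membrane anchor that helps bind ubiquinone, was at 2185, 1633 and 1563 with vehicle and at 3013, 2439 and 2892 with ginkgetin. It was the 1 gene of the 4 with no overlap, with a log2 difference of 0.64 ± 0.29 (SE; limma, adjusted p = 0.26). Sdha, the flavoprotein that oxidises succinate, was at 2196, 1786 and 1291 with vehicle and at 2154, 3446 and 3068 with ginkgetin. Here ginkgetin replicate 1 lay inside the vehicle range, and the log2 difference was 0.72 (limma, adjusted p = 0.269). With equal totals the log2 differences of Sdhd and Sdha were 0.12 and 0.20. Sdhb, the iron-sulfur subunit, differed by 0.33 (with equal totals -0.20), and its values of 2177, 1658 and 1500 with vehicle and 2129, 1968 and 2538 with ginkgetin overlapped. Sdhc, the other membrane anchor, was at 2061, 1671 and 1730 with vehicle and at 2032, 1880 and 2047 with ginkgetin, a log2 difference of 0.13 (-0.39 with equal totals).

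Complex III held the chain gene with the smallest p. Uqcrc2, a core protein on the matrix side of the complex, was at 535, 461 and 360 with vehicle and at 753, 1147 and 814 with ginkgetin. Every ginkgetin library exceeded every vehicle library, with a log2 difference of 0.99 ± 0.26 (SE; limma, adjusted p = 0.116; DESeq2 on recovered reads, adjusted p = 0.0221). The log2 difference stayed between 0.81 and 1.12 when each library was left out, was 0.84 without vehicle replicate 3 and was 0.47 with equal totals. Uqcrc1, its partner core protein, was at 1891, 2040 and 1606 with vehicle and at 2652, 2762 and 2261 with ginkgetin. Its groups did not overlap either, with a smaller log2 difference of 0.47 (limma, adjusted p = 0.36) that became -0.05 with equal totals. Uqcrfs1, the Rieske iron-sulfur protein, was at 2857, 2142 and 2324 with vehicle and at 3013, 3233 and 3245 with ginkgetin, a log2 difference of 0.38 (-0.14 with equal totals). Uqcrq, a small accessory subunit, was at 3880, 3636 and 1867 with vehicle and at 7359, 3130 and 4744 with ginkgetin. It varied widely in both groups and its log2 difference was 0.68 (limma, adjusted p = 0.424), and 0.16 with equal totals. The other 4 genes were between 0.17 (Uqcrh) and 0.46 (Uqcrb). The complex had a median of 0.42 on the deposited scale, 0.32 without vehicle replicate 3, 0.08 after quantile scaling and -0.10 with equal totals.

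Complex IV was the most uneven. Of its 16 nuclear genes 14 were tested, with a median log2 difference of 0.32 (10 higher, 4 lower) on the deposited scale, 0.24 without vehicle replicate 3, -0.07 after quantile scaling and -0.20 with equal totals. Most of the subunits usual in liver lay between 0.26 and 0.77. Cox5a, a subunit on the matrix side, was at 1095, 1029 and 1031 with vehicle and at 1203, 1455 and 1322 with ginkgetin. These groups did not overlap, although the log2 difference was only 0.33 (limma, adjusted p = 0.428; -0.19 with equal totals). Cox7b, a small membrane subunit, was at 2119, 1346 and 1088 with vehicle and at 3908, 1480 and 2636 with ginkgetin. Its log2 difference was 0.77 (limma, adjusted p = 0.342), and 0.24 with equal totals. Ginkgetin replicate 2 lay inside the vehicle range. Cox7c, another small membrane subunit, was at 4156, 2779 and 2731 with vehicle and at 6170, 3111 and 4878 with ginkgetin, a log2 difference of 0.52 that was 0.002 with equal totals. Cox5b and Cox6c, which have no second isoform in the table, were at 0.40 and 0.45 with overlap in both.

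Several complex IV subunits come as a widespread form and a form typical of another tissue, and the 4 lower means on the deposited scale were 3 of the second kind and that of Cox7a2l. Cox6b2, the testis form of the subunit on the intermembrane space side, was at 14.2, 29.1 and 152 with vehicle and at 13.3, 4.63 and 4.95 with ginkgetin. Vehicle replicate 3 was by far the highest, and the lowest vehicle value lay only just above the highest ginkgetin value. Its log2 difference was -2.40 ± 0.89 (SE; limma, adjusted p = 0.192; DESeq2 on recovered reads, adjusted p = 0.0197), and -1.45 without vehicle replicate 3. The recovered reads behind it were 12, 35 and 248 with vehicle and 12, 4 and 4 with ginkgetin. Cox6b1, the widespread form, was at 2000, 1821 and 2035 with vehicle and at 3096, 1871 and 2441 with ginkgetin, a log2 difference of 0.31 (-0.21 with equal totals). Cox4i2, the form found in lung, was at 4.75, 5.82 and 16.6 with vehicle and at 1.11, 5.78 and 14.8 with ginkgetin, low and overlapping. Cox4i1, its widespread counterpart, was at 8595, 6208 and 7278 with vehicle and at 10037, 7911 and 9623 with ginkgetin, a log2 difference of 0.33 (-0.20 with equal totals). Cox6a2, the heart and muscle form, was at 3.56, 10.8 and 3.68 with vehicle and at 3.32, 0 and 8.66 with ginkgetin. Cox6a1, the liver form, was at 2892, 2655 and 2552 with vehicle and at 3634, 3020 and 3902 with ginkgetin, with no overlap and a log2 difference of 0.38 (-0.15 with equal totals). The muscle forms Cox7a1 and Cox8b were too low to test: Cox7a1 was above 0 in vehicle replicate 3 alone, at 3.07, and Cox8b was at 0, 0.832 and 11.1 with vehicle and at 0 in all ginkgetin libraries. Their liver counterparts Cox7a2 and Cox8a differed by 0.09 and 0.26 (-0.42 and -0.27 with equal totals), and both overlapped. Cox7a2l, which joins complexes III and IV into supercomplexes, was at 1613, 1570 and 2700 with vehicle and at 1480, 1477 and 1476 with ginkgetin. All ginkgetin values were just under the vehicle values, with a log2 difference of -0.36 (limma, adjusted p = 0.511) that shrank to -0.11 without vehicle replicate 3.

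Cox6b2, Cox7a1 and Cox8b were highest in vehicle replicate 3, whereas Cox6a2 was highest in vehicle replicate 2. The table holds 8 striated muscle markers, of which 3 passed the filter on low values. All 8 together took 0.00625% of reads in vehicle replicate 3 against 0.000146% to 0.000356% in the others. Tnnt2, the cardiac troponin T, was at 35.6, 24.1 and 412 with vehicle and at 4.42, 15.0 and 3.71 with ginkgetin. It makes up most of that sum. Myh7, a cardiac myosin heavy chain, was at 3.56, 0 and 50.3 with vehicle and at 0, 12.7 and 0 with ginkgetin. Actn2, the muscle alpha-actinin, went the other way, at 11.9, 10.8 and 9.21 with vehicle and at 22.1, 18.5 and 21.0 with ginkgetin. The markers thus do not move as a group. Ckm, the muscle creatine kinase, was at 0 in every library but ginkgetin replicate 2, where it was at 4.63. What part these cells or genes have in the values of Cox6b2, Cox8b and Cox7a1 was not tested.

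ATP synthase, complex V, had 15 nuclear genes, all with a higher mean on the deposited scale and a median log2 difference of 0.31, which was 0.20 without vehicle replicate 3, -0.11 after quantile scaling and -0.21 with equal totals. Atp5l, the subunit g of the membrane part, was at 2456, 1734 and 2003 with vehicle and at 4422, 2269 and 3211 with ginkgetin. It had the largest log2 difference of the complex on the deposited scale, 0.64 ± 0.35 (SE; limma, adjusted p = 0.334), with 1 ginkgetin library inside the vehicle range. With equal totals the log2 difference of Atp5l was 0.12. Atp5a1, the alpha subunit of the catalytic head, was at 5704, 5968 and 6028 with vehicle and at 6278, 10098 and 7711 with ginkgetin. Its groups did not overlap, and the log2 difference of 0.42 was -0.10 with equal totals and -0.24 after quantile scaling. Atp5b, the catalytic beta subunit, also had no overlap, at 18288, 14089 and 10801 with vehicle and 19672, 19344 and 18848 with ginkgetin (0.46; -0.07 with equal totals). Atp5c1, the gamma subunit that turns inside the head, differed by 0.39 and Atp5j2, the subunit f, by 0.43, both with overlap and both under 0 with equal totals. The 3 genes for the c subunit of the rotor ring encode the same mature protein from different precursors. Atp5g1 differed by 0.32, Atp5g2 by 0.20 and Atp5g3 by 0.23 on the deposited scale, all with overlap, and by -0.20, -0.32 and -0.29 with equal totals. Atp5h, Atp5i, Atp5j and Atp5o, subunits of the stalk or the membrane part, were between 0.25 and 0.31 with overlap and under 0 with equal totals. The smallest log2 differences on the deposited scale were those of Atp5d (0.07) and Atp5e (0.09), small subunits of the central stalk. Atp5f1, the peripheral stalk subunit b, had at most 7 recovered reads in any library, so its level says nothing here. The symbol has 3 pseudogenes in the RefSeq gene table, and where reads on such copies went is not given; 37 of the 81 nuclear genes have at least 1 such copy, Atp5l the most with 8.

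Beside the complexes proper stood 4 genes that match by symbol. Ndufa4, first described in complex I and later as a subunit of complex IV, was at 1840, 1013 and 576 with vehicle and at 2761, 1036 and 2255 with ginkgetin. Ginkgetin replicate 2 lay among the vehicle libraries. The log2 difference was 0.86 ± 0.51 (SE), with a limma adjusted p of 0.362, and it was 0.34 with equal totals. Ndufa4l2, its paralog known to be induced by hypoxia, was at 0, 0.832 and 14.7 with vehicle and at 7.74, 2.31 and 1.24 with ginkgetin, too low and too scattered to order the groups. Atp5s and Atp5sl, which RefSeq lists as Dmac2l and Dmac2 and which are no ATP synthase subunits, differed by 0.19 and 0.15 (-0.33 and -0.37 with equal totals).

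The members also differed from the mean of all nuclear chain genes in the same library, a comparison that hardly depends on the scaling between libraries. Relative to that mean 7 of the 79 genes were higher with ginkgetin with no overlap (among them Atp5l, Ndufa6, Ndufb11, Ndufs5, Sdhd and Uqcrc2), and 3 were lower (Cox6b2, Ndufs4 and Ndufs8). Of all tested genes set against the same mean, 3.44% were higher and 24.1% lower with no overlap. That mean is made of the members themselves, whose median lay 0.39 above that of all genes on the deposited scale. The shares over all genes are thus shifted downward in advance and are no baseline for the 7 and the 3. The 7 genes belong to complexes I, II, III and V.

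A pattern seen after the values were known ran through the nuclear genes within the ginkgetin group. In ginkgetin replicate 2, the library with the lowest mitochondrial share, 65 of the 79 genes were lower than the mean of ginkgetin replicates 1 and 3 and 13 were higher, with a median log2 difference of -0.42. The genes lower by more than 1 log2 unit were Cox6a2, Ndufa4, Atp5i, Ndufa3, Cox7b, Uqcrb, Cox5b, Ndufa5 and Cox7a2. The genes higher by more than 0.3 were Sdha, Atp5a1, Uqcrc2, Ndufa10l1 and Atp5f1, the last with very few reads. Complex I core reads per 100 accessory reads were 35.5, 41.5 and 37.5 with vehicle and 35.0, 45.4 and 36.9 with ginkgetin, so this library was the highest of all 6 in that measure. The 69 genes of the cytosolic ribosome took 0.864% of reads there, the lowest of the 6 libraries, and 4.20% in vehicle replicate 3, the highest. The dip was not particular to the chain. Median log2 levels around the 6-library mean in ginkgetin replicates 1 to 3 were 0.287, -0.147 and 0.168 for the mitochondrial ribosome. For the cytosolic ribosome they were 0.089, -0.432 and -0.171. Complex I assembly factors had no such dip, at -0.025, 0.249 and 0.2. The same difference over all genes is not given. The pattern was described in this 1 library, and its source was not tested.

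**Figure D4:**
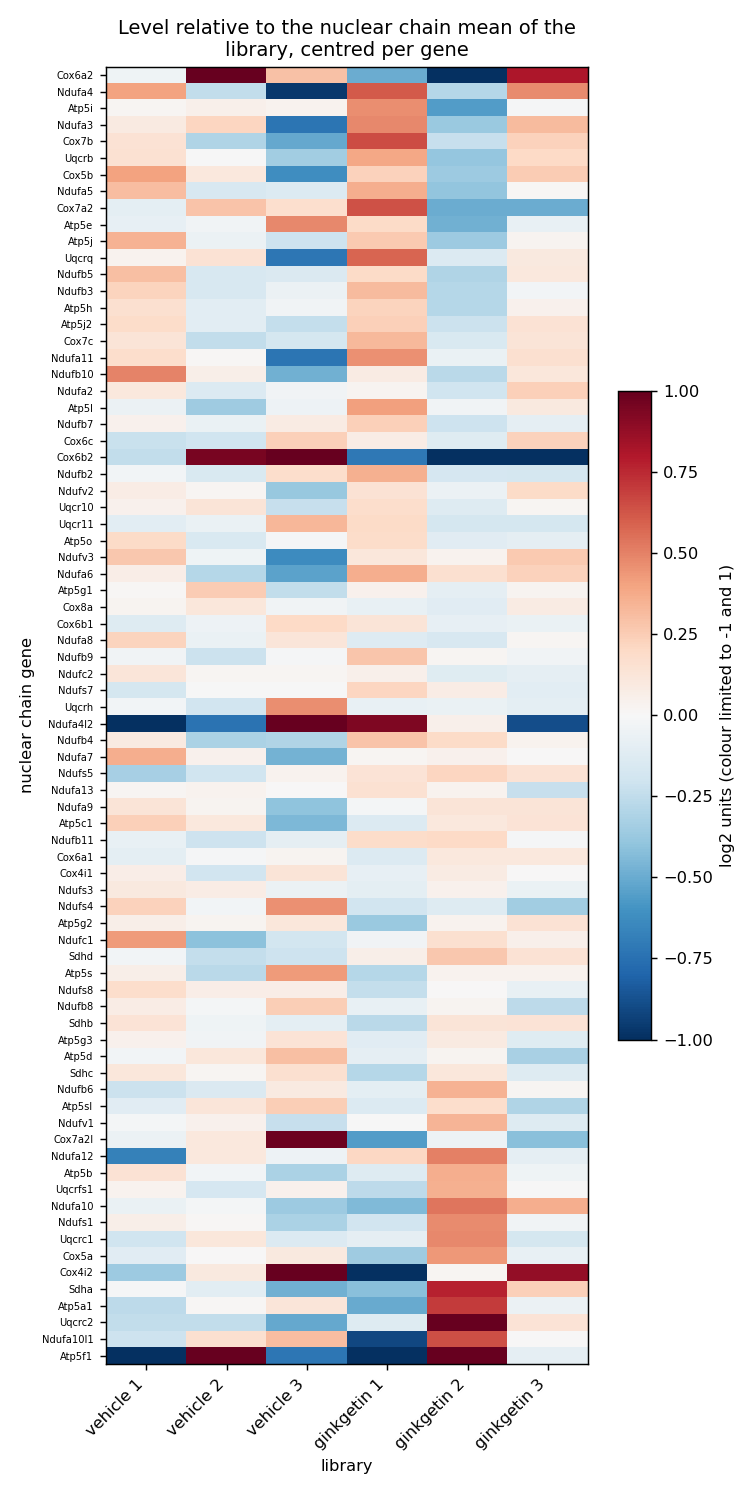
Level of 78 of the 79 tested nuclear chain genes relative to the nuclear chain mean of its library, centred per gene (colour, log2 units, limited to -1 and 1), with the 6 libraries on the x axis and genes ordered by the log2 difference between ginkgetin replicate 2 and the mean of ginkgetin replicates 1 and 3. The column of ginkgetin replicate 2 runs from blue at the top (Ndufa4, Atp5i, Ndufa3) to red at the bottom (Sdha, Atp5a1, Uqcrc2).

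Many nuclear chain genes are known to be driven by the factors NRF1, GABP (an ETS factor) and YY1, and the start regions of the members were searched for their core letters. RefSeq promoters of build GRCr8, which is not the build of the counts, cover 250 bases before to 50 after the start and were found for 70 of the 81 nuclear genes, among 33469 in all. On either strand GCGCANGCG (NRF1) was in 17 of the 70 (24.3%, against 5.8% of all promoters), CCGGAAG (GABP) in 19 (27.1%, against 8.75%) and AAGATGGC (YY1) in 15 (21.4%, against 3.17%). Any of these stood in 41 (58.6%, against 15.7%), whereas TATAAA stood in 5 (7.14%, against 14.2%). The median log2 difference on the deposited scale was 0.39 for the 41 with a match and 0.33 for the 27 tested without, so a match did not go with a clearly other value. The 150 bases before the start are shown for the members with an unadjusted limma p under 0.05 and an entry, to set the promoters of the 5 higher genes beside that of Cox6b2. They lie at chr1:184599090-184599239 on the plus strand (Uqcrc2), chr5:141264403-141264552 on the minus strand (Ndufs5), chr5:60206153-60206302 on the minus strand (Ndufb6), chr11:76569028-76569177 on the plus strand (Ndufb4), chr7:115750318-115750467 on the minus strand (Ndufa6) and chr1:78122721-78122870 on the plus strand (Cox6b2). Capitals mark matches to the NRF1, GABP or YY1 letters on either strand.
Uqcrc2: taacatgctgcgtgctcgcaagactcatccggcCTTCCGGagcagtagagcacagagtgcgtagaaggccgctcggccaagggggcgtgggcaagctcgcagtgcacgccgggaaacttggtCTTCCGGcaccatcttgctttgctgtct
Ndufs5: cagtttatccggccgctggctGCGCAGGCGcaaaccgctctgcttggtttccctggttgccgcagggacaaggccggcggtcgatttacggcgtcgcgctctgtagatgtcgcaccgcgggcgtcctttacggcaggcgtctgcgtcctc
Ndufb6: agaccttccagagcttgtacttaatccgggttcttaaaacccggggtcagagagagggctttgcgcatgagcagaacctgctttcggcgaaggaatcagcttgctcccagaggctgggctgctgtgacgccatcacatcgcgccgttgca
Ndufb4: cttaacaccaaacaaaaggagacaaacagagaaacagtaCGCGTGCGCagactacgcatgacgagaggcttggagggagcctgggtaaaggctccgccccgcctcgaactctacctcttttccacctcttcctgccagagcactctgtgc
Ndufa6: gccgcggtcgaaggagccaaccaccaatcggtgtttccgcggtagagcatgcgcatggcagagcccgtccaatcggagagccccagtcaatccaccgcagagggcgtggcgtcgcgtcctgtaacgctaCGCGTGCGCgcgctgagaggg
Cox6b2: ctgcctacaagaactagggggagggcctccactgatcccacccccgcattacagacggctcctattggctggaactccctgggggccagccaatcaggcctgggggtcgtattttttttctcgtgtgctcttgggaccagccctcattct
Uqcrc2 holds the GABP letters at both ends of the stretch, while Ndufs5, Ndufb4 and Ndufa6 each hold an NRF1 match in it. Ndufb6 and Cox6b2 have no match in the stretch shown, which says only that these letters are not there.

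No regulator of this programme passed an adjusted p of 0.05 by limma. At an unadjusted limma p under 0.05, 1 of the 13 was higher, against 7% of all genes. Tfam, which packages and transcribes mitochondrial DNA, was at 561, 482 and 419 with vehicle and at 640, 776 and 710 with ginkgetin. Its groups did not overlap, with a log2 difference of 0.55 ± 0.22 (SE; limma, adjusted p = 0.214) that was 0.03 with equal totals. Ppargc1a, the coactivator of mitochondrial biogenesis, was low and scattered at 13.05, 43.2 and 10.4 with vehicle and 24.3, 25.5 and 9.90 with ginkgetin, a log2 difference of 0.01 (-0.48 with equal totals). Nrf1 differed by -0.25, Esrra, the nuclear receptor that works with Ppargc1a, by -0.28, and Gabpa, the DNA-binding part of GABP, by 0.30 (-0.22 with equal totals). Ppara, the fatty acid receptor of liver, was at 206, 218 and 31.3 with vehicle and at 202, 523 and 292 with ginkgetin. Its log2 difference of 1.47 was 0.56 without vehicle replicate 3 and 0.957 with equal totals. Esrrg, a nuclear receptor related to Esrra, had the largest log2 difference of the list on the deposited scale, 1.502 (limma, adjusted p = 0.317). It was 0.569 without vehicle replicate 3 and 0.996 with equal totals. Its values were 129, 84.0 and 14.1 with vehicle and 84.0, 252 and 176 with ginkgetin. Both Ppara and Esrrg overlapped between the groups. Of the 13 regulators 9 had a higher mean on the deposited scale, with a median of 0.13. With equal totals 4 of 13 did, with a median of -0.39, and after quantile scaling 11 of 13, with a median of 0.346. Polrmt, the mitochondrial RNA polymerase, was at 408, 548 and 182 with vehicle and at 492, 450 and 463 with ginkgetin, and its log2 difference of 0.44 was -0.02 without vehicle replicate 3. Polg, the mitochondrial DNA polymerase, was at 626, 698 and 525 with vehicle and at 956, 2044 and 917 with ginkgetin. Its groups did not overlap, with a log2 difference of 0.99 (limma, adjusted p = 0.178), and 0.47 with equal totals. Of the 15 genes of mitochondrial DNA replication and transcription 13 had a higher mean on the deposited scale (median 0.39, and 0.19 without vehicle replicate 3). With equal totals 5 of 15 did, with a median of -0.13, and after quantile scaling 15 of 15, with a median of 0.435. On the deposited scale 3 of the 15 were higher at an unadjusted limma p under 0.05, against 7% of all genes, and 0 passed the adjusted one.

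The genes that build or serve the chain gave smaller medians on the deposited scale than the chain itself, except for the carriers and for DNA replication. After quantile scaling that order did not hold, as given below. Assembly factors had medians of 0.22 for complex I (11 of 14 higher), 0.14 for complex II (3 of 4), 0.06 for complex III (4 of 6), 0.18 for complex IV (16 of 21) and 0.17 for complex V (5 of 5). Among them Taco1, which activates translation of Mt-co1, was at 52.2, 54.1 and 30.7 with vehicle and at 86.2, 77.5 and 95.3 with ginkgetin, a log2 difference of 0.94 (limma, adjusted p = 0.215). Ttc19, an assembly factor of complex III, was at 222, 226 and 147 with vehicle and at 292, 374 and 319 with ginkgetin, a log2 difference of 0.74 (limma, adjusted p = 0.177). Both had no overlap between the groups, and with equal totals their log2 differences were 0.431 and 0.225. For mitochondrial RNA processing 13 of 17 had a higher mean (median 0.29). Trmt10c, a subunit of the enzyme that frees transfer RNAs from mitochondrial transcripts, was at 231, 202 and 244 with vehicle and at 355, 345 and 335 with ginkgetin, a log2 difference of 0.61 (limma, adjusted p = 0.171; 0.09 with equal totals). Grsf1, which binds mitochondrial RNA including that of Mt-nd6, was at 824, 808 and 809 with vehicle and at 1027, 1230 and 1152 with ginkgetin, a log2 difference of 0.48 (limma, adjusted p = 0.256) that was -0.04 with equal totals. These 2 genes are tight within each group. Translation factors had a median of 0.34 (9 of 11 higher), protein import and quality control 0.27 (11 of 17), the mitochondrial ribosome 0.22 (59 of 72 tested) and the tricarboxylic acid cycle 0.18 (9 of 11). In the cycle Suclg2 and Sucla2, which encode the beta subunits of the succinyl-CoA synthetases that make succinate, differed by 1.08 and 0.67 (limma, adjusted p = 0.21 and 0.231). Suclg2 and Sucla2 differed by 0.564 and 0.153 with equal totals. With equal totals the medians of all these lists lay under 0, from -0.461 (complex III assembly factors) to -0.18 (translation factors). Means were then higher for 2 of 14 complex I assembly factors, 5 of 21 complex IV assembly factors and 3 of 11 translation factors. The median of all genes was -0.53 on that scaling. After quantile scaling the assembly factor medians were 0.315, 0.138, 0.148, 0.219 and 0.298 for complexes I to V. RNA processing was at 0.377, translation factors at 0.338, the mitochondrial ribosome at 0.143, the tricarboxylic acid cycle at 0.095 and import at 0.003. The nuclear chain was then at 0.092 and all genes at 0.059.

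**Figure D5:**
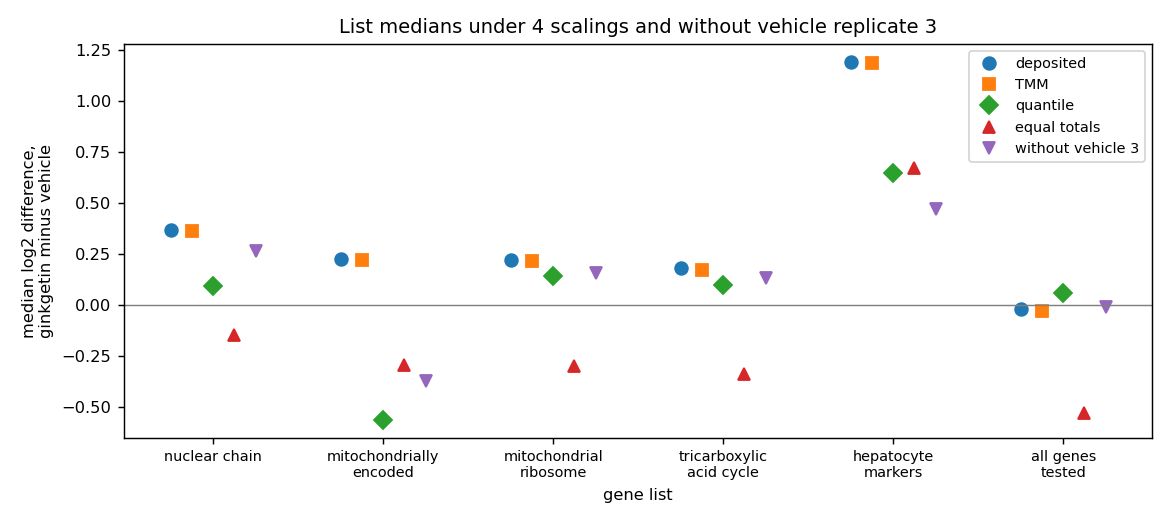
Median log2 difference between ginkgetin and vehicle (y axis) of 6 gene lists (x axis) under the deposited, TMM, quantile and equal-totals scalings and without vehicle replicate 3. The nuclear chain median is 0.37 on the deposited scale, 0.09 after quantile scaling and -0.15 with equal totals, where the median of all genes is itself at -0.53.

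Among the electron carriers and carriers of ADP and phosphate (13 of 22 higher, median 0.38; 0.16 without vehicle replicate 3), the values split. Slc25a4, the ADP/ATP carrier typical of heart and muscle, was at 370, 754 and 2670 with vehicle and at 230, 115 and 104 with ginkgetin. All vehicle libraries exceeded all ginkgetin libraries, most of all vehicle replicate 3, with a log2 difference of -2.69 ± 0.66 (SE; limma, adjusted p = 0.109) and -1.91 without that library. That library also had the highest Tnnt2 and Myh7, but the lowest Actn2. Its shares of stellate cell and fibroblast, cholangiocyte, and macrophage and leukocyte markers were the highest too. What part any of these have in the value of Slc25a4 was not tested. Slc25a5, the widespread ADP/ATP carrier, was at 3465, 2323 and 2339 with vehicle and at 3507, 3405 and 4434 with ginkgetin, a log2 difference of 0.50 with overlap (-0.02 with equal totals). Coq10a, which binds ubiquinone, differed by 0.96 (limma, adjusted p = 0.179) and Cycs, cytochrome c, by 0.45, which was -0.02 without vehicle replicate 3. With equal totals Coq10a and Cycs differed by 0.444 and -0.072. The hepatocyte markers, for comparison, all had a higher mean with ginkgetin (16 of 16, median 1.19; 0.47 without vehicle replicate 3), a larger median than that of any complex on the deposited scale.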

How the data were processed

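RNA of 6 rat liver samples was measured by bulk RNA-seq, and per the labels' protocols a SMARTER kit for mRNA made the libraries. The submitters' processing notes name the build mRatBN 7.2; the aligner, counting tool, annotation, strand setting and normalization were not given in the sources used here. The values the authors deposited are a signal: read counts per gene after normalization. Dividing by the lowest value above 0 in a library gave whole numbers, within 0.02, for 99.67% of its values, and so gave back whole reads (13372367 to 14933853 per library); 53 rows, no chain gene among them, were not whole. Counting error covers reads only, and reads without molecular identifiers are not independent molecules.

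The 14639 genes that reached a value of 1 in at least 3 libraries were tested with limma 3.58.1 (R 4.3.3; trend and robust moderation) on log2(value + 1), two-sided, with Benjamini-Hochberg adjustment over all of them. Differences are on that scale, which understates those of low genes. The design assumed this unit and was kept. edgeR 4.0.16 and DESeq2 1.42.0 on recovered reads, other scalings, pseudocounts, filters, a replicate block and leaving out each library were alternatives; 2 other denominators for mitochondrial shares were added after seeing the data. The smallest chi-square between libraries was 49.9 per degree of freedom, so none was a repeat of another. The fit was tested on simulated data.

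Members and gene lists were chosen with earlier results of these data known. Named genes were all mitochondrially encoded genes, in each nuclear complex the 4 with the smallest p, all of complex II and the tissue isoform pairs. To these came the 2 with the smallest p in each list of other mitochondrial genes, and 7 fixed regulators and carriers. Several picked from those other lists are not described above, among them Lonp1, Hspa9, Mtrf1, Mrpl46, Sco1, Tmem70, Atpaf2, Ecsit, Timmdc1 and Sdhaf3. Genes named for other reasons were chosen after their values were seen. Of the chain genes 1 is counted but not reported by name. Of the 81 nuclear symbols 64 matched RefSeq as symbols and 17 as synonyms.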

Additional observations from a re-analysis of the deposited data

How the results depend on the processing

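Over all genes limma called 2. The count was 5 with a pseudocount of 5, 94 with equal library totals, 62 with equal totals without mitochondrially encoded genes, 1 with quantile scaling, 0 by edgeR (2893 at an unadjusted p under 0.05) and 1375 by DESeq2. Leaving out each library gave 0 to 696, with 696 without vehicle replicate 1 and 84 without vehicle replicate 3. With the replicate number as a block it was 0 (2382 at an unadjusted p under 0.05). Same-numbered samples correlated at -0.163, 0.029 and -0.211, and differently numbered ones reached 0.198. These values show no pairing by number, but so few libraries cannot exclude one. The nuclear median was 0.37; it was -0.15 with equal totals, -0.152 also without mitochondrially encoded genes in the total, and 0.092 with quantile scaling. The mitochondrially encoded median was 0.22 and ran from -0.46 to 0.81 when each library was left out, -0.29 with equal totals, -0.30 without mitochondrially encoded genes in the total and -0.56 with quantile scaling. The log2 ratio of mitochondrially encoded to nuclear reads differed by -0.13, with a range of -0.635 to 0.267 on leaving out a library.

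Of 1288 values for the 76 named genes, 132 changed sign, in 42 genes, none of them called; 5 passed an adjusted p of 0.05, those of Uqcrc2, Cox6b2 and Slc25a4 by DESeq2 and of Slc25a4 and Coq10a without vehicle replicate 1. Of 154 complex medians, 29 had the opposite sign and 14 moved by more than 1 SD over the libraries. The cause of these shifts was not tested. Low genes such as Mt-atp8 (7 to 52 reads) and Atp5f1 (at most 7) are limited by depth.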

Other observations

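Mt-nd4, a membrane subunit of complex I, held 0.347%, 0.252% and 0.281% of the mitochondrially encoded reads with vehicle and 0.344%, 0.341% and 0.252% with ginkgetin, where Mt-nd5 held 2.33% to 3.51% and Mt-nd2 3.81% to 6.50%. These are read shares not adjusted for gene length. How reads shared between Mt-nd4 and the overlapping Mt-nd4l were counted is not given.

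Proliferation markers took 0.0028%, 0.0119% and 0.0309% of reads with vehicle and 0.000911%, 0.000876% and 0.0021% with ginkgetin, so the groups did not overlap. Red cell markers took 0.0537%, 0.0563% and 0.103% with vehicle and 0.0918%, 0.0612% and 0.0607% with ginkgetin, and endothelial markers 0.0246%, 0.0269% and 0.0673% with vehicle and 0.0236%, 0.0219% and 0.0149% with ginkgetin.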
